A study of Mus musculus with 12 samples.

Results

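A set of 9 genes of the integrin and actin-membrane linkage system was followed across the mouse aorta in the elastase model of aneurysm: the integrin subunits Itga8, Itga7, Itga5 and Itgb1, the membrane linker Dmd (dystrophin), the actin-associated proteins Synpo2 (synaptopodin 2), Nexn (nexilin) and Flna (filamin A), and the adhesion adaptor Lims2. They are 9 of the 24341 genes named in the count table, and they were chosen by the CPM and log2 fold changes they show in these same 12 libraries, so that every value given for them is a description and carries no test. Each gene is represented by the RefSeq transcript accession with the highest mean level. Of the 9 genes, 8 passed the filter on low counts, and Itga5 did not.

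Integrins are heterodimers of an alpha and a beta subunit that span the membrane, bind the extracellular matrix outside the cell and connect through talin, vinculin, kindlin and the ILK, PINCH and parvin complex to actin filaments inside it. A second linkage runs from laminin through dystroglycan and the sarcoglycans to dystrophin or utrophin, which bind cortical actin. In the smooth muscle cells of the aortic media both linkages lie at the plasma membrane, between the extracellular matrix and the actin filaments inside the cell.

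The mice were male C57BL/6J animals aged 10 weeks with no genetic modification named, and whole aortic tissue was sequenced from 4 animals in each of 3 groups. In the group called PPE week 2, elastase from porcine pancreas (PPE), which digests the elastin of the wall, was infused into the aorta below the kidneys and the vessel was taken after 14 days. In the group called PPE week 1 the same infusion was followed by harvest after 7 days. In the saline group, saline was infused into the same segment and the aorta was taken after 7 days, so that PPE week 2 has no saline group of its own age after surgery, and time and treatment cannot be told apart in its comparison with saline. Infusion is surgical in all 3 groups, and no aorta without infusion was analysed here.

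Levels are TMM-scaled CPM, counts per 1000000 counts of a library after scaling for composition. Total counts per library were 8343313 to 12269131, of which 1 ribosomal RNA precursor, NR_046233, took 19.5 to 22.1% at PPE week 2, 21.0 to 34.6% at PPE week 1 and 36.2 to 49.9% in saline. Acta2, the smooth muscle actin that defines the tissue's main cell type, lay between 3156 and 6998 CPM at PPE week 2, between 1167 and 2065 CPM at PPE week 1 and between 3220 and 4329 CPM in saline. How reads shared by several accessions of a gene were counted is not given in the sources used here, and some defining genes, among them Pecam1 of endothelium and S100a9 of neutrophils, are listed at 0 in every library, so a value of 0 is not read as absence. Because the tissue was sequenced in bulk, fewer cells of a type and less RNA per cell cannot be told apart in any value below. The library kit does not record strand.

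The accessions differ in how much sequence they hold alone, as read from the exons of the GENCODE transcripts linked to each accession. Itga8, Itga7, Itgb1, Synpo2, Nexn and Lims2 have 1 accession each in the count table and share no exonic base with another accession of their gene. Dmd has 6, of which NM_001314038 is linked to no GENCODE exons. Against the others, the full-length muscle transcript NM_007868 keeps 10519 of 14910 exonic bases for itself, and what it shares with NM_001314038 is not known. Flna NM_001290421 keeps 45 of 8312 bases and had 1065 counts over the 12 libraries, whereas NM_010227 keeps 78 of 8345 bases and had 0 counts, so the counts do not simply follow the bases an accession holds alone. The 2 accessions of Itga5 are linked to the same GENCODE exons, 4382 bases each, of which 0 are their own. They had 1 and 64 counts, so the counts do not follow these bases either, and the counted sequences may differ from them. Levels are therefore compared between groups within a gene and not between genes. Exons of Itga8 overlap those of E030013I19Rik on the other strand over 372 bases, those of Lims2 overlap Gpr17 over 188 bases, and those of Itga7 overlap Mettl7b over 9 bases. These neighbours had 1820, 2315 and 17 counts in all, beside 97414 for Itga8, 4719 for Lims2 and 10374 for Itga7, and reads from a shared stretch cannot be assigned to either strand.

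RefSeq's promoter windows (GRCm38.p6, the assembly behind mm10) run from 250 bases before to 50 bases after a gene's start, and the table holds Itga8, Itga5, Itgb1, Synpo2, Flna and, with 2 starts, Dmd. Itga7, Nexn and Lims2 are named here without one. The windows of 4 members are printed 5′ to 3′ because they are the members that moved most at PPE week 1 (Dmd, Itga8, Synpo2) and the beta subunit that moved least among those called (Itgb1). Capitals mark matches to the CArG box, the binding motif of serum response factor, to the GC box GGGCGG and to the TEAD motif GGAATG, each on either strand.
Dmd chrX:82948620-82948919 (+): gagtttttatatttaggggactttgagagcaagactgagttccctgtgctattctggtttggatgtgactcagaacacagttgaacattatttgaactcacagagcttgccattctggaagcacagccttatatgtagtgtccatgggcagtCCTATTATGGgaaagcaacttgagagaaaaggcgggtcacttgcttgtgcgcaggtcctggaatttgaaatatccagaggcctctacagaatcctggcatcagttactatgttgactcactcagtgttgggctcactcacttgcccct
Itga8 chr2:12301895-12302194 (-): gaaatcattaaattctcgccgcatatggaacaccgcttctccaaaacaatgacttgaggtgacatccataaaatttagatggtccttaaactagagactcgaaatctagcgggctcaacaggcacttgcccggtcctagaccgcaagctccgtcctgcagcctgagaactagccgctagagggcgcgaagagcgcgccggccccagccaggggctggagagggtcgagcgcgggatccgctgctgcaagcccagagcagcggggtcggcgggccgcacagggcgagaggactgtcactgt
Synpo2 chr3:123236100-123236399 (-): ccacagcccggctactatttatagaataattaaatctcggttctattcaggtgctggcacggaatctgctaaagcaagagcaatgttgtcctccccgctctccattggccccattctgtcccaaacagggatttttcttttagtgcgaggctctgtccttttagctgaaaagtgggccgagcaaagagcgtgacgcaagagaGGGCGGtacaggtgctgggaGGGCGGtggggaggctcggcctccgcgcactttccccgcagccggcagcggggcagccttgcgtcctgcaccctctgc
Itgb1 chr8:128685404-128685703 (+): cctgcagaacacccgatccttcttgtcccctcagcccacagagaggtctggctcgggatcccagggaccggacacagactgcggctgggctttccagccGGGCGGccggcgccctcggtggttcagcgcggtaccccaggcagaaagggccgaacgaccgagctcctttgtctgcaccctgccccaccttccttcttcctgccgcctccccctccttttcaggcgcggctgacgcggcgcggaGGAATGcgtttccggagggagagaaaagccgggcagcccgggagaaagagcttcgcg

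The Dmd window lies at the gene's first start, and the counted transcript begins inside it at X:82948903. It holds 1 CArG box, CCTATTATGG, beginning at position -98 from the gene's start, while the other 6 windows of members hold 0. A CArG box occurs in 1.63% of the 32851 promoter windows of this length in the table. The Synpo2 window holds GC boxes at -48 and -28, and the Itgb1 window holds a GC box at -151 and a TEAD motif at -7. The counted Synpo2 transcript begins at chr3:123236096, just downstream of its window, so the Synpo2 positions are not counted from that start. GC boxes occur in 35.7% and TEAD motifs in 14.7% of all windows. The Itga8 window holds 0 matches to these 3 motifs and 2 to the E-box CANNTG, which 72.3% of all windows hold and which is left in lower case. The Dmd, Synpo2 and Itgb1 windows hold 3, 2 and 0 E-boxes, and none of the capitalised matches overlaps another. A match is a run of letters and no evidence of binding, and a window without a match says nothing about sequence outside it.

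At 7 days after elastase, the RNA levels of Itga8, Itga7, Dmd, Synpo2, Nexn and Lims2 were all clearly below those of saline, and that of Itgb1 slightly so. At 14 days the RNA levels of these genes overlapped those of saline, except for Lims2, whose libraries all lay above saline. Of the 8 tested members, 7 were lower at PPE week 1 than in saline with an edgeR adjusted p under 0.05, in a comparison in which 7.89% of the 12756 accessions tested were called and 3.91% were lower. In the same 7 every PPE week 1 library lay below every saline library, which held for 9.01% of all accessions. The comparison of PPE week 2 with saline gave an edgeR count of 0 of 8, with 2 at an unadjusted p under 0.05, where 2.65% of all accessions were called, and DESeq2 called 1, Lims2, and limma-voom 0. In that comparison 1 member, Lims2, was higher without overlap, as were 4.55% of all accessions. Between the PPE weeks 6 of 8 were higher at week 2, both by edgeR and without overlap, where 6.59% of all accessions were called, 3.77% were higher by edgeR and 7.24% were higher without overlap. The medians of the 8 log2 fold changes were -1.68, -0.27 and 1.83 in these 3 comparisons, against 0.00, 0.05 and 0.02 over all accessions tested. These counts restate how the members were chosen, and each pair of comparisons shares 4 libraries. When the share of NR_046233 was added as a covariate, 4 members were called at PPE week 1 and 3 between the weeks. That share differs between the groups, and its part in the result cannot be told apart from theirs.

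Itga8 encodes the integrin alpha 8 subunit, which pairs with beta 1 and binds matrix proteins that carry the RGD motif, such as nephronectin, fibronectin and tenascin C. The gene lies at chr2:12106632-12301922 on the minus strand. Its level was 896, 811, 1404 and 609 CPM in the 4 PPE week 2 libraries, 153, 147, 204 and 349 CPM in the PPE week 1 libraries, and 1286, 1287, 1246 and 1643 CPM in the saline libraries. All 4 PPE week 1 libraries lay below every library of the other groups, and 3 of the 4 PPE week 2 libraries lay below every saline library. The log2 fold change over saline was -2.68 ± 0.32 (SE) at PPE week 1, 6.40-fold lower, and -0.55 ± 0.30 at PPE week 2. For PPE week 2 over PPE week 1 it was 2.12 ± 0.31, 4.36-fold higher at week 2.

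Itga7 encodes the alpha 7 subunit, a laminin-binding partner of beta 1 that is prominent in striated and smooth muscle, and lies at chr10:128933818-128958282. It had 129.7, 98.9, 173 and 82.6 CPM at PPE week 2, 48.0, 30.9, 48.0 and 46.9 CPM at PPE week 1, and 78.1, 94.2, 73.3 and 107 CPM in saline. The PPE week 1 libraries again stood below all others, whereas the PPE week 2 libraries spread across and above the saline range, 2 of them above every saline library. Over saline, the log2 fold change was -1.02 ± 0.22 (SE) at PPE week 1 and 0.46 ± 0.22 at PPE week 2, and it was 1.48 ± 0.22 for week 2 over week 1.

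Itgb1, at chr8:128685654-128733200, encodes the beta 1 subunit, which is the common partner of alpha 8, alpha 7, alpha 5 and many other alpha subunits and is made by most cells of the vessel wall. It had 835, 959, 1253 and 946 CPM at PPE week 2, 925, 915, 959 and 988 CPM at PPE week 1, and 1243, 1031, 1376 and 1531 CPM in saline. The PPE week 1 libraries lay closely together just under the lowest saline library, and the PPE week 2 libraries overlapped both. Its log2 fold change over saline was -0.45 ± 0.13 (SE) at PPE week 1, 1.37-fold lower, and -0.38 ± 0.13 at PPE week 2, and week 2 over week 1 gave 0.08 ± 0.13. Its difference at PPE week 1 passed the adjusted threshold in 5 of the 12 fits that left out 1 library, with log2 fold changes from -0.54 to -0.36, and scaling by library size alone gave -0.19.

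The ratio of each alpha subunit to Itgb1 was computed within each library and is read only between groups, since the genes differ in length. The log2 ratio of Itga8 to Itgb1 averaged -0.15 ± 0.37 at PPE week 2, -2.24 ± 0.53 at PPE week 1 and 0.08 ± 0.19 in saline (SD, n = 4 each). For Itga7 to Itgb1 it averaged -3.09 ± 0.38 at PPE week 2, -4.47 ± 0.29 at PPE week 1 and -3.88 ± 0.33 in saline. The RNA of both alpha subunits was therefore lowest relative to that of Itgb1 at PPE week 1. The log2 ratio of Itga8 to Itga7 was 2.93 ± 0.12 at PPE week 2, 2.23 ± 0.51 at PPE week 1 and 3.96 ± 0.14 in saline, and every library of both PPE groups lay below the lowest saline library, 3.77. The RNA ratio of these genes thus stayed shifted towards Itga7 at PPE week 2, when the CPM of each overlapped saline. For Itga8 that overlap came from replicate 3 alone, at 1404 CPM. How many other gene pairs part in this way was not computed.

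Itga5, the alpha subunit of the classical fibronectin receptor, had 64 counts in all 12 libraries and 0 to 14 per library, between 0 and 1.30 CPM. Neither of its accessions has a base of its own in the linked GENCODE exons, it did not pass the filter on low counts, and no difference is given for it.

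**Figure D1:**
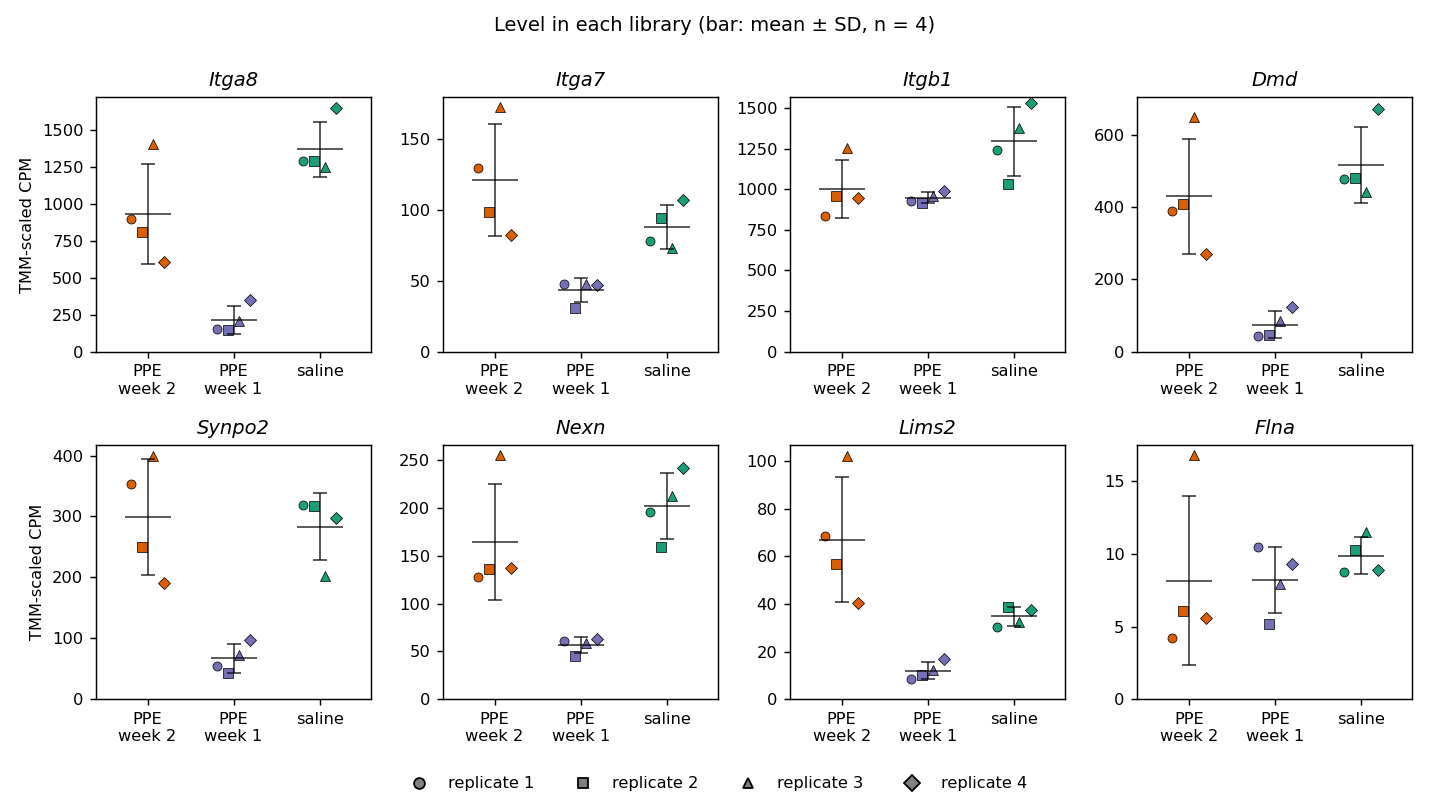
TMM-scaled CPM of the 8 tested genes in each library, by group (PPE week 2, PPE week 1, saline, 4 libraries each, with the symbol giving the replicate), with the mean and SD as bars on a linear axis from 0. The PPE week 1 points of Itga8, Itga7, Itgb1, Dmd, Synpo2, Nexn and Lims2 lie below all saline points, and replicate 3 of PPE week 2 is the highest of its group in all 8 panels.

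Dmd encodes dystrophin, the cytoplasmic rod that ties cortical actin to dystroglycan and so to laminin. The gene spans X:82948870-85206141, and the values are those of the full-length transcript. They were 389, 407, 649.8 and 271 CPM at PPE week 2, 44.1, 47.2, 84.0 and 123 CPM at PPE week 1, and 477, 479, 440.4 and 672 CPM in saline. Of the other 5 Dmd accessions, 4 had a count of 0 in all libraries and NM_001314038 had 110 counts in all, and no level is given for the shorter products from internal starts. The PPE week 1 libraries did not overlap with either other group, and 3 of the 4 PPE week 2 libraries lay below every saline library. The log2 fold change of -2.79 ± 0.36 (SE), 6.94-fold lower at PPE week 1 than in saline, was the most negative of the 8 tested members. At week 2 the value over saline was -0.27 ± 0.34, and week 2 over week 1 gave 2.53 ± 0.36.

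Synpo2 (chr3:123076519-123236149, minus strand) encodes an actin-bundling partner of alpha-actinin and filamin found in the dense bodies of smooth muscle and the Z-discs of striated muscle. It had 354, 249.8, 400.0 and 191 CPM at PPE week 2, 55.2, 43.0, 73.0 and 96.8 CPM at PPE week 1, and 318, 316, 201 and 297 CPM in saline. Saline and PPE week 2 overlapped widely, and the PPE week 1 libraries lay apart from both. The highest of them was 96.8 CPM, against 191 CPM for the lowest of the other 8 libraries. The fold changes over saline on the log2 scale were -2.08 ± 0.28 (SE) at PPE week 1 and 0.08 ± 0.27 at PPE week 2, with 2.15 ± 0.28 for week 2 over week 1.

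Nexn (chr3:152236982-152266350, minus strand) encodes nexilin, an actin filament binding protein of focal adhesions and Z-discs. It had 128, 137, 256 and 138 CPM at PPE week 2, 60.9, 44.8, 58.4 and 63.2 CPM at PPE week 1, and 196, 159, 213 and 241 CPM in saline. At PPE week 2 replicate 3 stood above every saline library and the other 3 stood below all of them. Relative to saline its log2 fold change was -1.83 ± 0.21 (SE) at PPE week 1 and -0.30 ± 0.21 at PPE week 2, where it was -0.59 without replicate 3, and week 2 over week 1 gave 1.53 ± 0.21.

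Lims2, on chromosome 18, encodes PINCH2, a LIM-domain adaptor that binds integrin-linked kinase. It had 68.6, 56.6, 102 and 40.2 CPM at PPE week 2, 8.54, 10.1, 12.4 and 17.0 CPM at PPE week 1, and 30.2, 38.7, 32.5 and 37.5 CPM in saline. Lims2 was the 1 member of the 8 whose PPE week 2 libraries all lay above all saline libraries, although the lowest of them, 40.2 CPM, was close to the highest saline value of 38.7 CPM. Over saline its log2 fold change was -1.53 ± 0.28 (SE) at PPE week 1 and 0.95 ± 0.27, 1.93-fold higher, at PPE week 2, and week 2 over week 1 gave 2.48 ± 0.29. In the authors' deposited table Lims2 had a log2 fold change of 0.83 for PPE week 2 against saline. Its adjusted p there was 0.0393, under 0.05, and DESeq2 is the tool that the submitters' notes name. For PPE week 1 against saline the authors gave -2.49 for Itga8 and -2.52 for Dmd.

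Flna, the actin cross-linker that also binds integrin beta tails, was read from the accession with 1065 counts, and where on the transcript those reads fall is not known. It had 4.20, 6.04, 16.8 and 5.61 CPM at PPE week 2, 10.5, 5.2, 7.93 and 9.28 CPM at PPE week 1, and 8.79, 10.3, 11.5 and 8.93 CPM in saline. All 3 groups overlapped. The log2 fold change over saline was -0.26 ± 0.43 (SE) at PPE week 1 and -0.27 ± 0.43 at PPE week 2, or -0.90 there without replicate 3, and week 2 over week 1 gave -0.01 ± 0.43, or -0.64 without that replicate. The 95% interval of the first, -1.11 to 0.59, also covers the -0.45 of Itgb1.

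**Figure D2:**
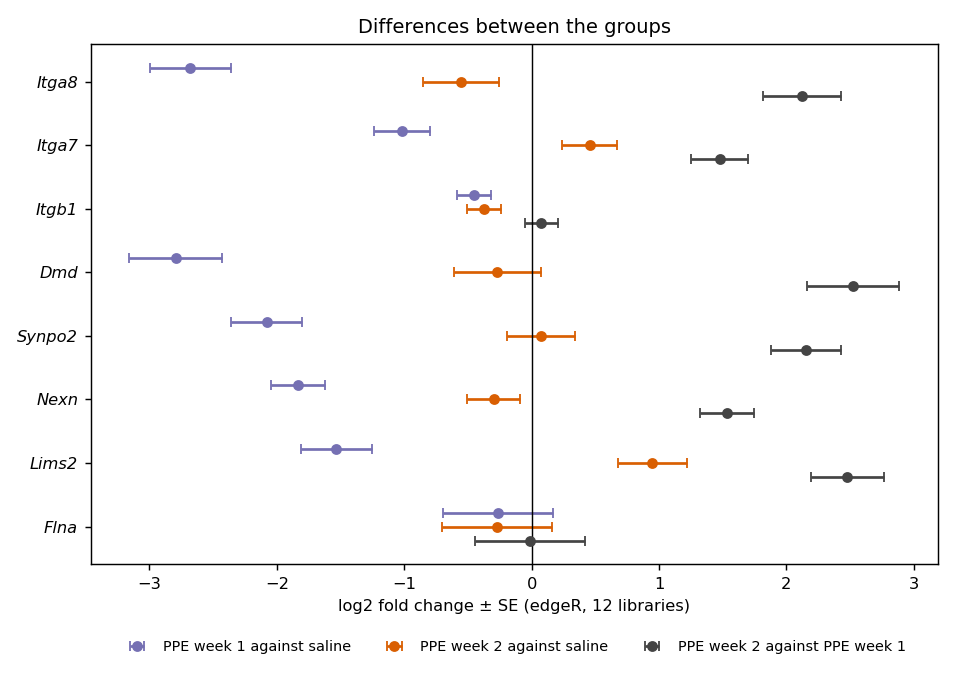
Log2 fold changes with their standard errors from edgeR for the 8 tested genes in the 3 comparisons, with a vertical line at 0. The values run from -2.79 for Dmd to -0.26 for Flna at PPE week 1 over saline, and between -0.55 for Itga8 and 0.95 for Lims2 at PPE week 2 over saline.

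Members also varied together among animals of 1 group, to unequal degrees. With group means taken out, the Pearson r between 2 members ran from 0.15 for Itgb1 and Synpo2 to 0.97 for Itga8 and Dmd. In PPE week 2, replicate 3 was the highest library for 8 of the 8 tested members and replicate 4 the lowest for 5. At PPE week 1, replicate 4 was the highest for 6 and replicate 2 the lowest for 6, and in saline replicate 4 was the highest for 5. For Itga8 the SD was 36.4% of the mean at PPE week 2, 44.1% at PPE week 1 and 13.6% in saline. For Dmd it was 37.1%, 49.5% and 20.3% in the same groups, so that both varied more among elastase-treated animals than in saline. For Itgb1 it was 17.9% at PPE week 2, 3.53% at PPE week 1 and 16.3% in saline.

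Over the 12 libraries, Itga8 and Dmd had a Pearson r of 0.99 between their log2 levels. Outside the members, the 5 accessions whose log2 level followed Itga8 most closely were those of Rgs5 (Pearson r = 0.99), a regulator of G protein signalling in mural cells, Dstn (0.98), the actin depolymerising factor destrin, Mylk4 (0.98), Cpe (0.98) and Cped1 (0.98). Rgs5 averaged 2763 CPM at PPE week 2, 735 CPM at PPE week 1 and 3531 CPM in saline. Those closest to Itgb1 outside the members were Smurf2 (r = 0.94), a ubiquitin ligase of TGF-beta signalling, Mgp (0.93), the matrix Gla protein, Ccnd2 (0.92), Tm9sf2 (0.92) and Pds5b (0.92). Mgp averaged 1872 CPM at PPE week 2, 1487 CPM at PPE week 1 and 2917 CPM in saline. The 12 libraries form 3 groups that differ in level, and these coefficients describe that difference as much as the spread within groups.

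Of the marker lists for cell types of the vessel, those of smooth muscle and of pericytes moved with the members, while several others did not. A list of 15 smooth muscle contractile genes, among them Acta2, Tagln, Cnn1 and Myocd, had a summed level of 7471, 7756, 13321 and 6320 CPM in the 4 PPE week 2 libraries, 3031, 2710, 3387 and 4485 CPM in the PPE week 1 libraries, and 7249, 8094, 7673 and 9339 CPM in the saline libraries. Replicate 3 of PPE week 2 and replicate 4 of the other groups were the highest, as they were for most members. Of the 15, 10 fell at PPE week 1 against saline and 0 rose (edgeR, adjusted p under 0.05), and for PPE week 2 against saline 0 passed.

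A list of 15 macrophage and monocyte genes, 14 of them tested and 1 at 0 in all libraries, ran the other way, with a summed level of 1645, 4154, 1568 and 4475 CPM at PPE week 2, 5642 to 7072 CPM at PPE week 1 and 2712 to 3194 CPM in saline. At PPE week 1, 4 of its 14 genes rose and 0 fell, and replicates 2 and 4 of PPE week 2 stood well above replicates 1 and 3. The 12 fibroblast genes summed to 2556 to 3082 CPM at PPE week 2, 2223 to 2867 CPM at PPE week 1 and 3849 to 4665 CPM in saline. Of the 12, 7 fell at PPE week 1 and 4 at PPE week 2 against saline, where they were Dpt, Lum, Dcn and Col14a1. The 12 endothelial genes summed to 856 to 1446 CPM at PPE week 2, 846 to 978 CPM at PPE week 1 and 808 to 975 CPM in saline, and 0 of 10 tested passed in either comparison with saline. The 8 pericyte genes, 2 of them at 0 and Rgs5 among the rest, summed to 2590 to 6157 CPM at PPE week 2, 919 to 1540.2 CPM at PPE week 1 and 3823 to 5074 CPM in saline, with 3 of 5 tested lower at PPE week 1 and 2 of 5, Notch3 and Cspg4, higher at PPE week 2 against saline. Rgs5 made up most of this sum. It averaged 2763, 735 and 3531 CPM at PPE week 2, PPE week 1 and in saline, where the sum averaged 3843, 1195 and 4216 CPM. Neutrophil genes summed to 4.03 to 19.8 CPM at PPE week 2, 40.4 to 144 CPM at PPE week 1 and 8.28 to 21.5 CPM in saline. Fat was uneven, with 9 adipocyte genes between 182 and 2828 CPM at PPE week 2, 289 and 566 CPM at PPE week 1 and 637 and 1849.5 CPM in saline. T and natural killer cell genes, 8 tested of 11, summed to 40.9 to 186 CPM at PPE week 2, 168 to 209.9 CPM at PPE week 1 and 53.2 to 81.7 CPM in saline, and Cd3g and Ncr1 rose at PPE week 1. Schwann cell and neuron genes, 7 tested of 10, summed to 83.5 to 414 CPM at PPE week 2, 38.1 to 174 CPM at PPE week 1 and 26.1 to 64.5 CPM in saline, and 1, Th, rose at PPE week 2 against saline. The marker genes named in these lists were picked after their values were seen. The part of these cell types in the members' differences was not tested.

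Dystrophin, integrin alpha 7 and nexilin are also skeletal and cardiac muscle proteins. A list of 20 skeletal muscle genes, 4 of them at 0 in all libraries, summed to 9.37 to 14.6 CPM at PPE week 2, 8.07 to 41.3 CPM at PPE week 1 and 2.98 to 10.6 CPM in saline. The 9 cardiac genes, 4 of them at 0, summed to 94.2 to 182 CPM at PPE week 2, 18.4 to 79.5 CPM at PPE week 1 and 108 to 134 CPM in saline, and Myh6 was at 0. Acta1 was at 0 in every library, and Myh4 reached 15.4 CPM in 1 PPE week 1 library and was at 0 in all PPE week 2 and saline libraries. The cardiac sum moved with the members, lower in every PPE week 1 library than in any other, and 1 of its 4 tested genes, the calcium channel Ryr2, fell at PPE week 1 against saline and was higher at PPE week 2 than at week 1. The skeletal sum was highest in PPE week 1 replicate 3, at 41.3 CPM. The part of either muscle type in the members' differences was not tested.

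**Figure D3:**
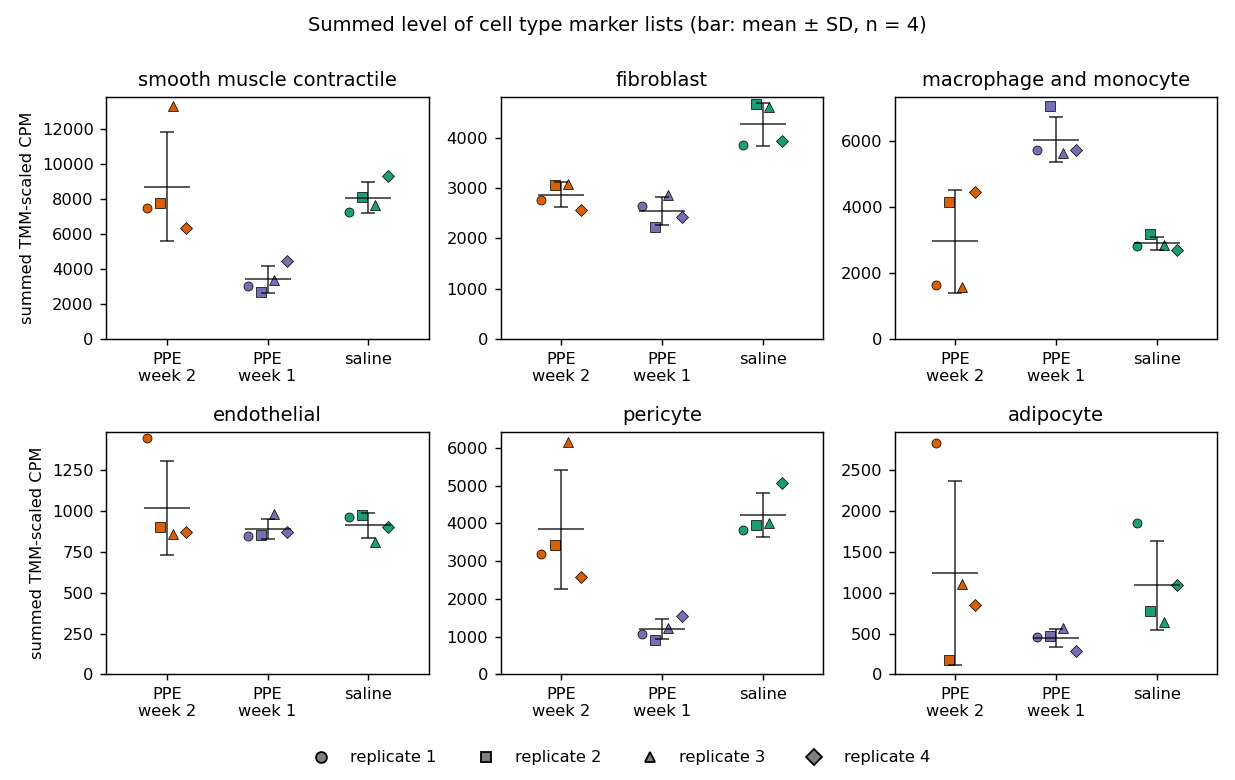
Summed TMM-scaled CPM of 6 marker lists in each library, by group (PPE week 2, PPE week 1, saline, 4 libraries each), with the mean and SD as bars on linear axes from 0. The contractile sum at PPE week 1, 2710 to 4485 CPM, lies below every other library, and the macrophage sum at PPE week 1, 5642 to 7072 CPM, lies above every other library.

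Set against the contractile sum of the same library, the members parted. That sum was itself lower in every PPE week 1 library than in any other, so a gene that fell less stands higher on this scale. The share of all accessions whose groups do not overlap on this scale was not computed. Per 1000 CPM of contractile markers, Itga8 averaged 107 ± 9.83 CPM at PPE week 2, 60.7 ± 12.1 at PPE week 1 and 169 ± 9.33 in saline (SD, n = 4 each), and the 3 groups did not overlap. Dmd averaged 49.0 ± 4.45 at PPE week 2, 21.0 ± 6.04 at PPE week 1 and 63.6 ± 6.65 in saline, again without overlap. Both were thus below saline in relation to the contractile sum in all 8 PPE libraries. Acta2 weighs heavily in that sum, with 3220 to 4329 CPM in saline, where the sum was 7249 to 9339 CPM. The contractile genes called at PPE week 1 against saline fell unequally, with log2 fold changes from -0.71 for Mustn1 to -2.47 for Myh11. Acta2 had -1.25, Cnn1 -1.85 and Lmod1 -2.17, so the ratio to the sum does not hold for each contractile gene.

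The adaptors and the other subunits took other courses on this scale. Itga7 averaged 14.0 ± 2.22 at PPE week 2, 13.0 ± 2.48 at PPE week 1 and 10.9 ± 0.95 in saline, with its PPE week 2 libraries all above saline and its PPE week 1 libraries overlapping both. Synpo2 averaged 34.9 ± 8.34 at PPE week 2, 19.3 ± 2.78 at PPE week 1 and 35.2 ± 7.79 in saline, with PPE week 1 apart from the rest. Nexn, at 18.9 ± 2.08, 17.0 ± 2.48 and 25.1 ± 3.67 in PPE week 2, PPE week 1 and saline, overlapped in each pair of groups. Lims2 averaged 7.63 ± 1.18 at PPE week 2, 3.49 ± 0.455 at PPE week 1 and 4.30 ± 0.335 in saline. Its 3 groups did not overlap, with PPE week 2 the highest and PPE week 1 the lowest. Itgb1 averaged 119.8 ± 23.3 at PPE week 2, 286 ± 49.5 at PPE week 1 and 161 ± 23.0 in saline, so that it was higher at PPE week 1 on this scale, also without overlap. Flna averaged 0.873 ± 0.293 at PPE week 2, 2.45 ± 0.694 at PPE week 1 and 1.23 ± 0.223 in saline, and its PPE week 1 libraries too lay above all others.

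**Figure D4:**
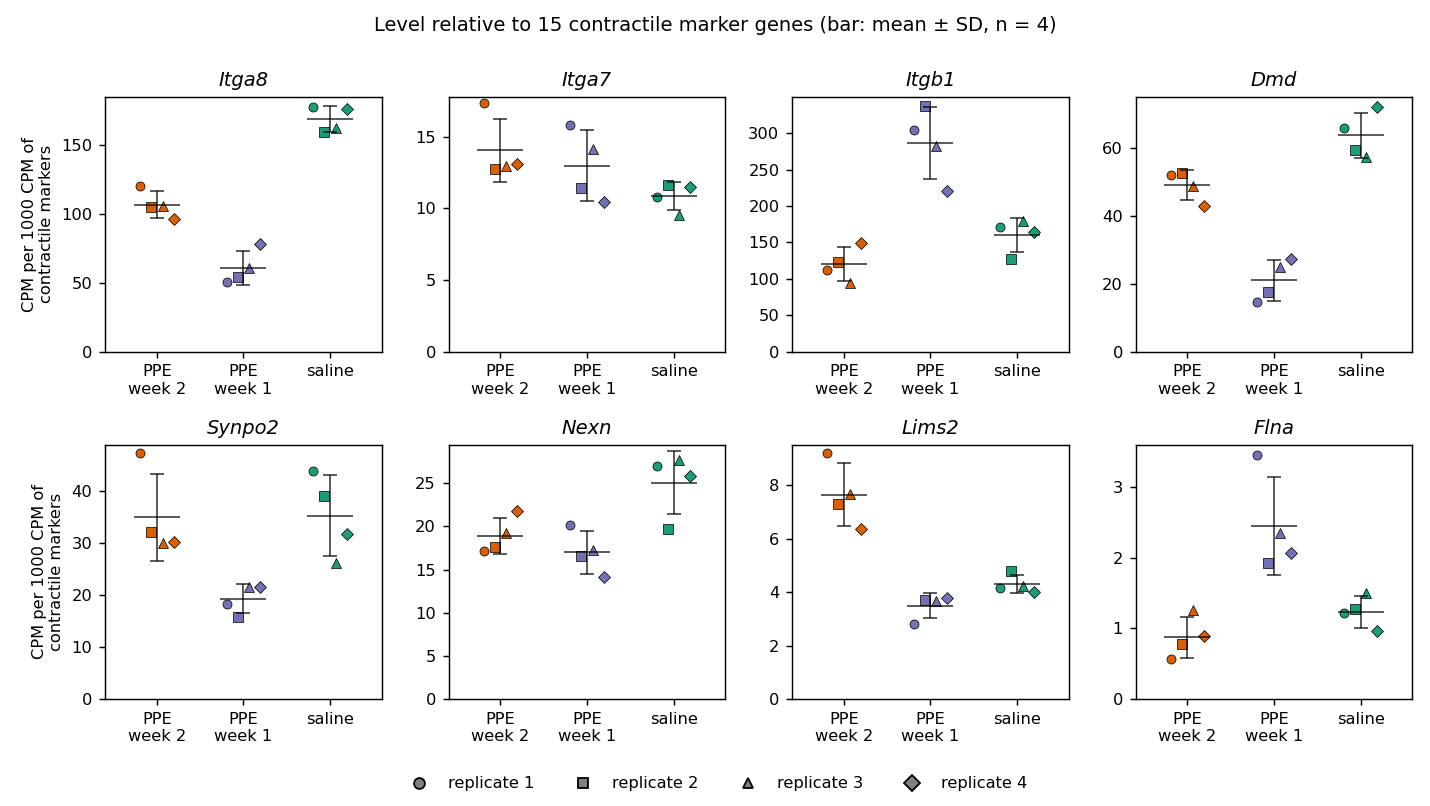
CPM of the 8 tested genes per 1000 CPM of 15 contractile marker genes in each library, by group (PPE week 2, PPE week 1, saline, 4 libraries each), with the mean and SD as bars on linear axes from 0. Itga8, Dmd and Lims2 separate the 3 groups, Itga8 and Dmd with saline highest and Lims2 with PPE week 2 highest. Itgb1 and Flna are highest at PPE week 1.

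The rest of the linkage was read from 6 lists of 162 genes, none of them a member, of which 161 were in the table and 123 were tested. Of the 123, 30 fell and 5 rose at PPE week 1 against saline (edgeR adjusted p under 0.05), where 3.91% of all accessions tested fell and 3.98% rose, and the median log2 fold change was -0.25, against 0.00 over all accessions. At PPE week 2 against saline 3 fell and 5 rose, where 1.35% of all accessions fell and 1.3% rose, with a median of 0.13, against 0.05. For PPE week 2 over PPE week 1, 26 were higher and 3 lower, where 3.77% and 2.82% of all accessions were, with a median of 0.47, against 0.02. With library size alone as the scale, 11 fell and 12 rose at PPE week 1, 1 fell and 24 rose at PPE week 2, and 34 were higher and 0 lower between the weeks. With the NR_046233 share as a covariate the PPE week 1 counts were 1 and 0. These lists were drawn up with results of these data known. Many of the calls were near the threshold: of the 35 at PPE week 1 against saline, 14 stayed past it in each of the 12 fits that left out 1 library, as did 1 of 8 at PPE week 2 against saline and 16 of 29 between the weeks. The number of these 12 fits in which a named gene passed is given after its list, except where it passed in all 12.

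Among the other alpha subunits, 2 of 11 tested fell at PPE week 1 against saline and 0 rose. Itga10, a collagen receptor subunit, averaged 11.8 ± 3.46 CPM at PPE week 1 and 33.9 ± 14.1 CPM in saline (SD, n = 4 each), a log2 fold change of -1.52 ± 0.36 (SE; edgeR adjusted p = 0.0173). Itga9, which binds tenascin C, averaged 90.1 ± 16.2 CPM at PPE week 1 and 154 ± 22.7 CPM in saline (-0.78 ± 0.22; edgeR adjusted p = 0.0409). The same list had 2 genes higher at PPE week 2 than at week 1, Itga10 by 1.26 ± 0.36 and Itga9 by 0.95 ± 0.22 on the log2 scale (edgeR adjusted p = 0.0446 and 0.0188). Itgav, the partner of beta 3 and beta 5, averaged 337 ± 40.9 CPM at PPE week 1 and 385 ± 59.3 CPM in saline and did not pass. Itga1, a collagen receptor subunit, averaged 146 ± 37.5 CPM at PPE week 1 and 160.3 ± 28.2 CPM in saline and did not pass either (edgeR adjusted p = 0.474 and 0.767). In the PPE week 2 comparison with saline none of the 11 passed by edgeR and 1 had an unadjusted p under 0.05. The smallest p values there were those of Itgav (-0.45 ± 0.14, edgeR adjusted p = 0.0908) and Itga11 (0.72 ± 0.38, edgeR adjusted p = 0.368). Without 1 library, Itga10 passed at PPE week 1 in 9 fits and between the weeks in 4, and Itga9 in 5 and 8.

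Of the 5 other beta subunits tested, 2 rose and 1 fell at PPE week 1 against saline, and the 2 beta 1 binding proteins in the same list, Itgb1bp1 and Itgb1bp2, passed in no comparison by edgeR, with 0 at an unadjusted p under 0.05. Itgb2, the beta subunit of leukocyte integrins, rose at PPE week 1, with 347 ± 47.2 CPM against 128 ± 26.7 CPM in saline (log2 fold change 1.44 ± 0.32 SE; edgeR adjusted p = 0.0179). Itgb7, of lymphocytes, rose with 54.5 ± 7.41 CPM at PPE week 1 and 15.5 ± 5.31 CPM in saline (1.81 ± 0.51; edgeR adjusted p = 0.0465). Itgb3, the partner of alpha v, fell, with 105 ± 18.5 CPM at PPE week 1 and 197 ± 53.2 CPM in saline (-0.91 ± 0.24; edgeR adjusted p = 0.0311). Itgb5 had 221 counts over the 12 libraries and a log2 difference of -0.09 ± 0.91, which measures little. Neither of the later comparisons called a beta subunit. With PPE week 2 set against saline none of the 5 passed by edgeR, 1 had an unadjusted p under 0.05, and the smallest p values were those of Itgb8 (1.20 ± 0.32, edgeR adjusted p = 0.0522) and Itgb2 (0.63 ± 0.31, edgeR adjusted p = 0.336). Of the 5, 2 had between the PPE weeks an unadjusted p under 0.05, Itgb3 (0.62 ± 0.24) and Itgb2 (-0.81 ± 0.31), with edgeR adjusted p values of 0.143 and 0.154. The PPE week 1 calls held without 1 library in 8 fits for Itgb2, 5 for Itgb3 and 4 for Itgb7.

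Of 25 tested integrin ligands and adhesive matrix proteins, 5 fell and 1 rose at PPE week 1 against saline. Ccn2, a matricellular protein and target of mechanical signalling, fell, with 329 ± 39.6 CPM at PPE week 1 and 1049 ± 329 CPM in saline (log2 fold change -1.67 ± 0.28 SE; edgeR adjusted p = 0.00552). The laminin chains Lama2 and Lama3 fell by 1.19 ± 0.26 and 1.25 ± 0.35 (edgeR adjusted p = 0.0155 and 0.0367), Postn (periostin) fell by 1.30 ± 0.38 (edgeR adjusted p = 0.0425), and Lamb2, named after its values were seen, fell by 0.69 ± 0.19 (edgeR adjusted p = 0.0373). Lama1 rose, with 6.79 to 13.2 CPM at PPE week 1 and 0 to 0.174 CPM in saline (edgeR adjusted p = 0.00493), where 3 saline libraries had 0 counts. Among the ligands of alpha 8, Fn1 (fibronectin) differed by -0.17 ± 0.26 and Tnc (tenascin C) by 0.00 ± 0.16 on the log2 scale, neither of which passed (edgeR adjusted p = 0.804 and 0.999), Vtn (vitronectin) differed by 0.28 ± 0.43 (edgeR adjusted p = 0.796), and Npnt (nephronectin) had 16 counts in all and was not tested. Of the PPE week 1 calls, those of Lama2, Lama3, Lamb2 and Postn held in 10, 5, 5 and 4 of the 12 fits without 1 library.

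In PPE week 2 aortas, 4 of these ligands rose and 2 fell against saline. Col4a2 averaged 1696 ± 416 CPM at PPE week 2 and 1035 ± 80.3 CPM in saline (0.71 ± 0.14; edgeR adjusted p = 0.0137), Lama5 rose by 0.68 ± 0.16 and Emilin1 by 0.64 ± 0.17 (edgeR adjusted p = 0.0310 and 0.0496), and Lama1 had 0 to 7.56 CPM (edgeR adjusted p = 0.0250). Fbn1 (fibrillin 1) and Postn fell by 0.66 ± 0.11 and 1.81 ± 0.38 (edgeR adjusted p = 0.00420 and 0.0184). Lamb2 was higher at PPE week 2, with 618 ± 186 CPM, against 243 ± 52.0 CPM at PPE week 1 (1.35 ± 0.19; edgeR adjusted p = 0.00112), and Lama3, Ccn2 and Lama5 were higher by 1.51 ± 0.35, 1.38 ± 0.28 and 1.18 ± 0.16 (edgeR adjusted p = 0.0164, 0.0146 and 0.00104), and Fbln5 (fibulin 5), named after its values were seen, by 1.10 ± 0.28 (edgeR adjusted p = 0.0361). Fbn1 and Lamb1 differed by -0.67 ± 0.11 and -0.47 ± 0.12, lower at week 2 (edgeR adjusted p = 0.00172 and 0.0286). With 1 library left out, the calls against saline held in 11 fits for Col4a2, 10 for Postn, 7 for Lama1, 5 for Lama5 and 1 for Emilin1, and those between the weeks in 10 for Ccn2, 8 for Lama3, 8 for Lamb1 and 6 for Fbln5.

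Between integrin tails and actin, 8 of 31 tested focal adhesion genes fell at PPE week 1 against saline and 1 rose. Vcl (vinculin), which reinforces talin under load, averaged 394 ± 59.8 CPM at PPE week 1 and 698 ± 65.6 CPM in saline (log2 fold change -0.82 ± 0.16 SE; edgeR adjusted p = 0.00684). Fermt2, the kindlin that activates integrins outside blood cells, fell by 0.98 ± 0.19 (edgeR adjusted p = 0.00684), whereas Fermt3, the kindlin of blood cells, rose, with 111 ± 19.3 CPM at PPE week 1 and 36.2 ± 5.95 CPM in saline (1.62 ± 0.43; edgeR adjusted p = 0.0429). Kank1, which links talin to the microtubule cortex, and Csrp2, a LIM protein of smooth muscle, fell by 1.22 ± 0.22 and 1.16 ± 0.27 (edgeR adjusted p = 0.00388 and 0.0229). Tln1 (talin) differed by 0.23 ± 0.11 at PPE week 1 (edgeR adjusted p = 0.201) and rose at PPE week 2 against saline by 0.41 ± 0.11 (edgeR adjusted p = 0.0469), the 1 gene of this list that passed there. That call of Tln1 held in 1 of the 12 fits without 1 library and was lost in 11, with adjusted p values up to 0.138. At PPE week 1 the calls of Csrp2 and Fermt3 held in 7 and 4 of them.

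Ilk, the kinase that Lims2 binds, had 51 counts in 12 libraries and was not tested, Lims1, the paralogue of Lims2, had 267 counts and a log2 difference of 0.32 ± 0.87 at PPE week 1, and Tns1 (tensin 1) had 698 counts and a difference of -1.61 ± 0.74 (edgeR adjusted p = 0.897 and 0.211). Parva (alpha-parvin) averaged 219.5 ± 23.6 CPM at PPE week 1 and 278 ± 15.2 CPM in saline (-0.34 ± 0.13; edgeR adjusted p = 0.127). Of the 31 focal adhesion genes, 9 were higher at PPE week 2 than at week 1 and 0 lower, led by Kank1 (1.63 ± 0.22), Csrp2 (1.45 ± 0.28), Csrp1 (1.05 ± 0.18) and Tns2 (0.91 ± 0.17), with edgeR adjusted p values of 0.00104, 0.00855, 0.00289 and 0.00447.

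Of 22 tested genes of the dystrophin-glycoprotein complex, its glycosylation and caveolae, 5 fell and 0 rose at PPE week 1 against saline. The sarcoglycans, membrane partners of dystrophin, were among them. Sgca averaged 1.55 ± 1.05 CPM at PPE week 1 and 9.18 ± 1.91 CPM in saline (log2 fold change -2.56 ± 0.54 SE; edgeR adjusted p = 0.00887), and Sgcd averaged 19.9 ± 2.73 CPM at PPE week 1 and 59.6 ± 17.2 CPM in saline (-1.58 ± 0.35; edgeR adjusted p = 0.0133). Utrn, the dystrophin homologue utrophin, averaged 695 ± 34.4 CPM at PPE week 1 and 1011 ± 80.8 CPM in saline (-0.54 ± 0.14; edgeR adjusted p = 0.0234). Cavin1, which coats caveolae, fell by 1.02 ± 0.17 and Sntb2, a syntrophin named here after its values were seen, fell by 0.49 ± 0.14 (edgeR adjusted p = 0.00224 and 0.0471). Cav1 (caveolin 1), with 877 counts in all, differed by 0.23 ± 0.52, and Sspn (sarcospan), with 80 counts, by -0.10 ± 1.42 (edgeR adjusted p = 0.870 and 0.981). Dag1 (dystroglycan) had 59 counts and was not tested. The PPE week 1 calls held in 11 of the 12 fits without 1 library for Sgcd, 6 for Utrn and 5 for Sntb2.

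Sntb2 alone of these 22 passed at PPE week 2 against saline, with 58.9 ± 3.87 CPM at PPE week 2 and 96.6 ± 10.1 CPM in saline (-0.71 ± 0.14; edgeR adjusted p = 0.0149). Set against PPE week 1, 4 were higher at PPE week 2 and 0 lower: Sgca by 2.59 ± 0.54, Sgcd by 1.44 ± 0.34, Cavin1 by 0.87 ± 0.17 and Utrn by 0.62 ± 0.14 (edgeR adjusted p = 0.00858, 0.0228, 0.00534 and 0.0132). Without 1 library, Sntb2 passed against saline in 11 fits, and between the weeks Utrn passed in 11 and Sgcd in 7.

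Among 27 tested actin cross-linkers and dense body proteins, 9 fell and 1 rose at PPE week 1 against saline. Lmod1 (leiomodin 1), which nucleates actin filaments in smooth muscle, averaged 75.4 ± 32.1 CPM at PPE week 1 and 339 ± 51.8 CPM in saline (log2 fold change -2.17 ± 0.35 SE; edgeR adjusted p = 0.00455), and it also stands in the contractile list. Fhl1, Pdlim3 and Xirp1 fell by 1.87 ± 0.53, 1.86 ± 0.36 and 1.08 ± 0.26 (edgeR adjusted p = 0.0391, 0.00801 and 0.0185). Synpo, the paralogue of Synpo2, averaged 79.5 ± 5.0 CPM at PPE week 1 and 146 ± 13.9 CPM in saline (-0.87 ± 0.18; edgeR adjusted p = 0.00877). Svil (supervillin) and Pdlim7 fell by 0.69 ± 0.13 and 0.93 ± 0.20 (edgeR adjusted p = 0.00406 and 0.00896). Ezr (ezrin), which ties actin to membrane proteins of epithelia and leukocytes, rose, with 70.6 ± 10.6 CPM at PPE week 1 and 35.1 ± 11.9 CPM in saline (1.01 ± 0.27; edgeR adjusted p = 0.0290). Palld (palladin), with 205 counts in all, differed by 0.81 ± 0.92 (edgeR adjusted p = 0.702), and Flnc, a filamin of muscle, had 64 counts and was not tested. Leaving out 1 library kept the PPE week 1 call in 4 fits for Fhl1, 6 for Xirp1 and 6 for Ezr.

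None of the 27 passed by edgeR at PPE week 2 against saline, while 6 had an unadjusted p under 0.05. The smallest p values were those of Ablim1 (2.44 ± 0.70, edgeR adjusted p = 0.0739) and Cald1, caldesmon (-0.47 ± 0.15, edgeR adjusted p = 0.107). Set against PPE week 1, 6 were higher at PPE week 2 and 1 was lower. Fhl1, Lmod1, Pdlim3 and Xirp1 were higher by 2.05 ± 0.53, 2.02 ± 0.35, 1.95 ± 0.36 and 1.72 ± 0.26 (edgeR adjusted p = 0.0286, 0.00620, 0.00618 and 0.00129), and Msn (moesin), the ezrin relative of leukocytes and endothelium, differed by -0.45 ± 0.12 (edgeR adjusted p = 0.0404). Between the weeks the calls of Fhl1 and Msn held in 7 and 4 of the 12 fits without 1 library.

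**Figure D5:**
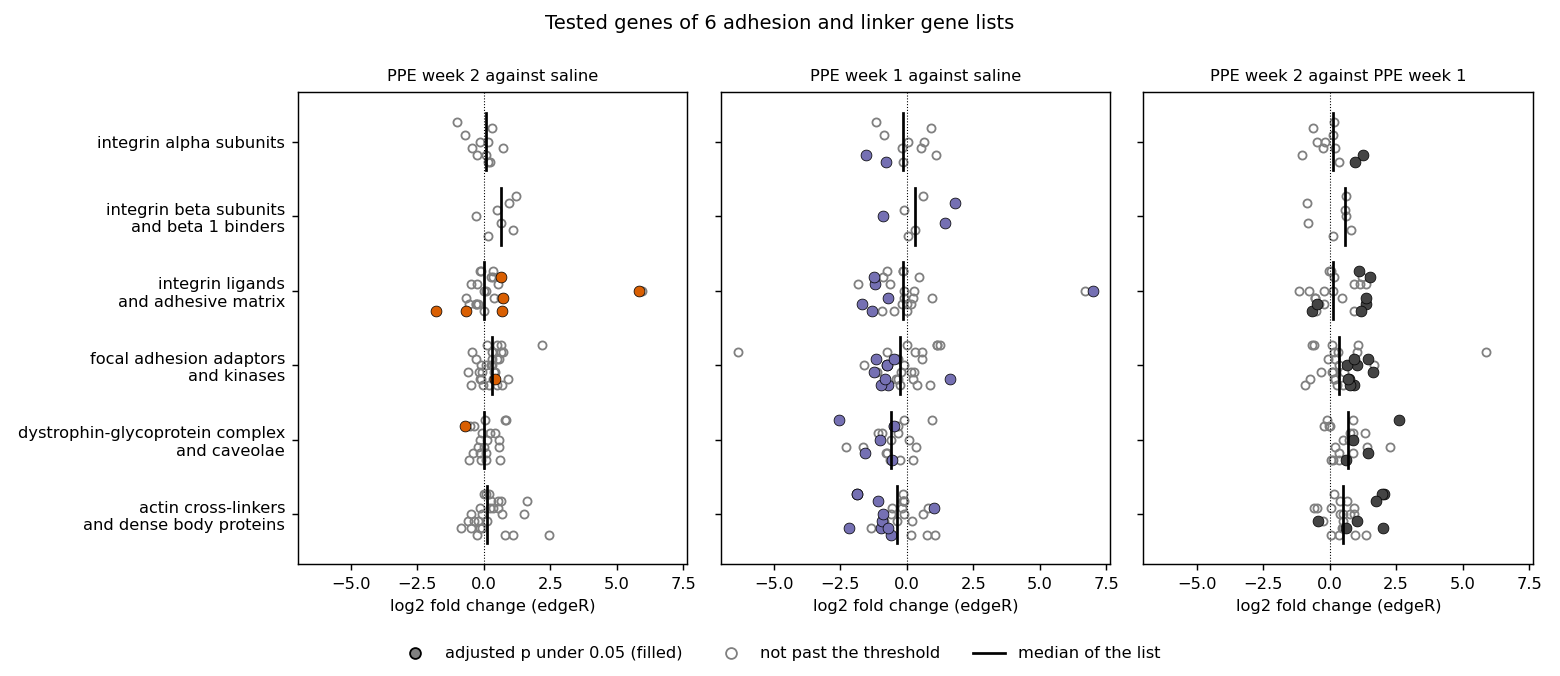
Log2 fold changes from edgeR of the 123 tested genes of 6 adhesion and linker lists (the beta list with its 2 beta 1 binding proteins) in the 3 comparisons, with filled points for genes at an adjusted p under 0.05, open points for the rest and a black line at each list's median. For PPE week 1 over saline 30 filled points lie below 0 and 5 above, for PPE week 2 over saline 3 lie below and 5 above, and for week 2 over week 1 there are 3 below and 26 above.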

How the data were processed

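Aortic RNA of 12 mice was sequenced. Per the labels' protocols, 500 ng of RNA (TRIzol, then columns) went into each TruSeq v2 library. DESeq2, bcl2fastq and build mm10 are named in the submitters' processing notes. The aligner, counter and annotation were not given in the sources used here. What the authors deposited is a table of raw counts by RefSeq accession, besides 2 tables of log2 fold changes and p-values against controls. Each label marks a separate sample of its group, and p-values measure the spread between these samples. Of 34755 accessions, RefSeq's gene table for GRCm38.p6 named 34424 and GENCODE's 192. Promoter sequences are RefSeq's, from the same build.

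Counts were analysed with edgeR 4.0.16 in R 4.3.3: filterByExpr with default settings kept 12756 accessions, libraries were scaled by TMM, and a robust quasi-likelihood model with 1 mean per group was fitted to all 12 libraries. Two-sided p values were adjusted by Benjamini and Hochberg's method across the tested accessions, with 0.05 as the threshold, and the standard error is the log2 fold change divided by the square root of F. The procedure was tested on simulated counts. The log2 CPM values used for correlations had a prior count of 2. The chi-square per accession between replicates was at least 15.5, so no library was a repeat of another.

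The members and the gene lists were chosen with earlier results of these data known. Genes outside the members were named by a rule: up to 4 higher and 4 lower per list and comparison by size of change among those called, otherwise the 2 with the smallest unadjusted p, plus 27 fixed genes with their values at PPE week 1 against saline. Some called genes are counted and not named, and 1 of the fixed genes is not reported here. Alternatives were DESeq2 1.42.0, its size factors in edgeR, limma-voom 3.58.1, library size alone, no low-count filter, at least 1 CPM in 4 libraries, fits to the 8 libraries compared, a replicate term, leaving out NR_046233 or adding its share as a covariate, halved counts, counts summed per gene, and leaving out each library.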

Additional observations from a re-analysis of the deposited data

Results flagged for a closer look

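Within groups of 4 libraries, single values stood far from the other 3 by Dixon's ratio in 19 of 222 groups tested, where chance alone flags about 1 group in 20. Among the members, the highest value stood apart for Itga8 in saline (1643 CPM, others 1246 to 1287), Dmd in saline (672 CPM, others 440.4 to 479), Nexn at PPE week 2 (256 CPM, others 128 to 138) and Flna at PPE week 2 (16.8 CPM, others 4.20 to 6.04), and the lowest for Itga7 at PPE week 1 (30.9 CPM, others 46.9 to 48.0). Among summed marker levels, the highest stood apart for skeletal muscle at PPE week 1 (41.3 CPM), endothelium at PPE week 2 (1446 CPM), macrophages and monocytes at PPE week 1 (7072 CPM) and pericytes in saline (5074 CPM). Among genes of the 6 lists, the highest PPE week 2 library stood apart for Cald1 (1508 CPM), Csrp2 (621 CPM), Fhl1 (21.5 CPM), Itgb3 (247 CPM) and Sntb2 (64.6 CPM). In other groups it was the highest for Lama1 at PPE week 1 (13.2 CPM), Lama1 in saline (0.174 CPM, the others at 0) and Vtn in saline (24.5 CPM), and the lowest for Cavin1 in saline (607 CPM) and Itgb8 at PPE week 1 (16.0 CPM).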

How the results depend on the processing

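Members called at PPE week 1 against saline numbered 7, and 6 to 7 when 1 library was left out, with 4 when the NR_046233 share was a covariate (Itgb1, Itga7 and Lims2 lost). That share differs between the groups, so covariate and group cannot be told apart. Between the PPE weeks they numbered 6 in every fit without 1 library and 3 with the covariate (Itga8, Nexn and Dmd lost). At PPE week 2 against saline 0 became 1 with DESeq2 (Lims2), 1 with no low-count filter (Lims2), 2 with library size alone (Lims2 and Itga7), and 0 to 1 without 1 library: Itgb1 passed without PPE week 2 replicate 3 and Lims2 without PPE week 2 replicate 4. The causes of these changes were not tested.

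Accessions called at PPE week 1 against saline were 1007 in the fit reported, 1587 with DESeq2, 82 with the covariate, 2026 in the 8 libraries compared and 378 to 1396 without 1 library. At PPE week 2 against saline they were 338, 745 with DESeq2, 0 with the covariate, 1638 with library size alone, 74 in 8 libraries and 139 to 381 without 1 library. Between the PPE weeks they were 841, 1463 with DESeq2, 69 with the covariate, 521 in 8 libraries and 319 to 1213 without 1 library. The counts fell by over 1.5 times without any PPE week 1 library or saline replicates 2, 3 or 4 (PPE week 1 against saline), without PPE week 1 replicates 3 or 4, PPE week 2 replicates 2 or 4 or any saline library (PPE week 2 against saline), and without any PPE week 1 library or PPE week 2 replicate 3 (between the weeks).

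List genes higher at PPE week 1 against saline were 5, 0 with the covariate, 12 with library size alone, 3 with limma-voom, 2 with no filter, 11 in 8 libraries and 1 to 9 without 1 library; those lower were 30, 1 with the covariate, 11 with library size alone and 14 to 38 without 1 library. At PPE week 2 against saline the higher ones were 5, 9 with DESeq2, 0 with the covariate, 24 with library size alone, 3 with limma-voom, 0 in 8 libraries and 0 to 7 without 1 library; the lower ones were 3, 0 with the covariate, 1 with library size alone, 1 in 8 libraries and 1 to 6 without 1 library. Between the PPE weeks the higher ones were 26, 4 with the covariate, 17 in 8 libraries and 15 to 31 without 1 library; the lower ones were 3, 0 with the covariate, 0 with library size alone and 1 to 3 without 1 library.

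Scaling by library size alone moved the median log2 fold change of all accessions to 0.28, 0.54 and 0.23 in the 3 comparisons. Values that were not called changed sign under it for Cald1 (0.0058) and Itgav (0.024) at PPE week 2 and Fn1 (0.13), Itga1 (0.18), Itgav (0.072), Itgb5 (0.24) and Sspn (0.071) at PPE week 1. Members not called also changed sign, at PPE week 2 Itgb1 (0.09), Nexn (0.16), Dmd (0.19) and Flna (0.20) and at PPE week 1 Flna (0.02). Others at PPE week 1 were Itgb5 with the covariate (0.90), limma-voom (0.43) and the replicate block (0.070), Lims1 (-0.14) and Vtn (-0.099) with the covariate, and Tnc with DESeq2 (-0.016), its size factors (-0.016), the covariate (-0.063), summed counts (-0.0044), halved counts (-0.0041) and 8 libraries (-0.0089). Leaving out 1 library gave Fn1 -0.29 to 0.032, Itga1 -0.28 to 0.015, Itgb5 -0.50 to 0.35, Lims1 -0.23 to 1.05, Sspn -1.77 to 1.13 and Tnc -0.10 to 0.090.

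The labels do not say that replicate numbers pair the animals. Deviations of same-numbered libraries correlated from -0.088 to 0.035, which shows no shared effect but cannot exclude a pairing. With the replicate block 204 accessions were called at PPE week 2 against saline and 2 list genes were higher there.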
